A study of Mus musculus with 15 samples.

Results

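The 8 genes Tmem119, P2ry12, P2ry13, Sall1, Siglech, Gpr34, Olfml3 and Cx3cr1 are used as a signature of microglia, the resident macrophages of the brain tissue. They were followed here in macrophages of the dura mater, the outer membrane around the brain. The members were listed by name, all 8 of the 8 were rows among the 53546 gene symbols of the count table, and 7 of them were among the 14683 genes that passed a filter on low counts. Sall1 did not pass and is described by its counts.

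The libraries were bulk RNA-seq of CD206-positive cells sorted from the dura of C57BL/6J mice of the genotype Cx3cr1GFP/wt, in which 1 of the Cx3cr1 alleles is replaced by the gene of green fluorescent protein. Embryos were taken at E14.5 (E for embryonic day) and young and adult mice at P3, P10, P21 and P56 (P for postnatal day). Each of the 5 ages has 3 libraries, 15 together. Genotype, strain and sorted surface protein were the same at every age, so the reporter allele was present in all groups and a mouse with both Cx3cr1 alleles was not analysed here. The design text speaks of 3 to 5 individual mice at each age without tying libraries to mice. The P56 libraries belong to another sequencing project than the other 4 ages, so that age P56 and project cannot be told apart.

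Microglia sense their surroundings through G protein-coupled receptors. Cx3cr1 is the receptor of the neuronal chemokine fractalkine (Cx3cl1), P2ry12 and P2ry13 are receptors of the nucleotide ADP that damaged cells release, and Gpr34 is a receptor of lysophosphatidylserine. Tmem119 is a transmembrane protein, Siglech a sialic acid-binding lectin that signals with the adaptor Tyrobp, Olfml3 a secreted olfactomedin-domain protein, and Sall1 a zinc finger transcription factor that maintains microglial identity. These genes are high in microglia and are commonly used to set microglia apart from macrophages at the borders of the brain, although Cx3cr1 is expressed by many mononuclear phagocytes, P2ry12 also by platelets and Siglech also by plasmacytoid dendritic cells.

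The promoter windows of 4 members are shown for the letters they carry, since Siglech rose and Cx3cr1 fell in comparisons with E14.5 and P2ry12 and P2ry13 are neighbours on chromosome 3. Each window runs from 250 bases before to 50 bases after the gene's start, from RefSeq on GRCm38.p6, 5′ to 3′ on the strand of the gene. Capitals mark a match to GGAAGT, the core of a PU.1 site, or to TGTGGT, a RUNX site, read on either strand. The windows are chr7:55767934-55768233 (plus strand) for Siglech, chr9:120068247-120068546 (minus strand) for Cx3cr1, chr3:59262936-59263235 (minus strand) for P2ry12 and chr3:59210833-59211132 (minus strand) for P2ry13.
Siglech: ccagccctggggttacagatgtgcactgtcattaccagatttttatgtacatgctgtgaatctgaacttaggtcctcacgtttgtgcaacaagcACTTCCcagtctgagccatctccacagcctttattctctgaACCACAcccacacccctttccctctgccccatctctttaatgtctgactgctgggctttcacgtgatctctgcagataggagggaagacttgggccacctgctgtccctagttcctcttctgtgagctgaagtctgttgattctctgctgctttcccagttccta
Cx3cr1: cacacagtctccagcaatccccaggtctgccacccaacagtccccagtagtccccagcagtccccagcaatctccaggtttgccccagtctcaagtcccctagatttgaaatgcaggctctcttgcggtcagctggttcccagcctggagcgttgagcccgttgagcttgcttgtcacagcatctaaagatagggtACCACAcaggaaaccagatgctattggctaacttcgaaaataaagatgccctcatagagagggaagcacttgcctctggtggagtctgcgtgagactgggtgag
P2ry12: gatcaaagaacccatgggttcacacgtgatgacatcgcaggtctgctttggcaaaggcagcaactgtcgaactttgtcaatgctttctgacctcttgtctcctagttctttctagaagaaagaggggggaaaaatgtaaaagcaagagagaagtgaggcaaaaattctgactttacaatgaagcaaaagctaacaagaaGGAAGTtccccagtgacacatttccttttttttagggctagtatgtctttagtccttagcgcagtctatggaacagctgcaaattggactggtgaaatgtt
P2ry13: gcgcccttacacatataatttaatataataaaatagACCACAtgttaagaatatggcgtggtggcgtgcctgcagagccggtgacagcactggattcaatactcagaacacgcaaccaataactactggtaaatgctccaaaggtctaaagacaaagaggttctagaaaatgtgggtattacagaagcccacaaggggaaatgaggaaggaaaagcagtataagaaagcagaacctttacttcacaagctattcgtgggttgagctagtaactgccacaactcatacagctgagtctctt

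RefSeq windows were found for 6 of the 8 members. The PU.1 core was present in the windows of Siglech and P2ry12 and in 1 of 3 windows of Sall1, and 23.8% of 32851 mouse promoter windows hold it. The RUNX site was present in Siglech, Cx3cr1 and P2ry13, against 16.8% of all windows. The AP-1 site TGANTCA (7.81% of all windows), the MAF half-site TGCTGA (19.5%) and the IRF element (3.44%) had no match in any window of the 6 genes on either strand, and the marked matches did not overlap. The Olfml3 window held none of the 5 motifs.

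Total counts ranged from 17550170 to 30614583 per library. Levels are CPM, a gene's count relative to the library's total over the tested genes times its TMM factor, as mean ± SD over 3 libraries unless a library is named. TMM factors ran from 0.807 to 0.857 for the P56 libraries and from 1.123 to 1.158 for the E14.5 libraries, so an older library's level is raised relative to its share of the total count. Changes are log2 ratios of the older over the younger age, with SE, from edgeR's quasi-likelihood F-test, and calls need an adjusted p under 0.05 over all genes tested. The macrophage genes were present at every age: Csf1r, the receptor gene for the survival factor of macrophages, had 648 to 1193 CPM per kb of exon as age means, and Mrc1, which encodes the sorted CD206, had 323 to 483. Adgre1 (F4/80) had age means of 1420 to 2489 CPM and Ptprc (CD45) of 160 to 334. In bulk libraries, fewer cells of a type and less RNA per cell cannot be told apart.

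Per kb of exon, the signature genes fell into 3 tiers. Gpr34, Cx3cr1, P2ry12 and P2ry13 had age means of 78.7 to 363 CPM per kb, Tmem119, Siglech and Olfml3 had 4.09 to 60.2, and Sall1 had 0.0117 to 0.109. Cx3cr1 was the highest member at E14.5, with 158 ± 32.3 CPM per kb, and Gpr34 was the highest at every later age, with 363 ± 135 CPM per kb at P56. Per kb of coding sequence, Cx3cr1 was the highest at E14.5, P3 and P21 and Gpr34 at P10 and P56, so the first place at P3 and P21 depends on the length used. In these mice 1 of the Cx3cr1 alleles is replaced, and the bearing of this on its place among the members was not tested. P2ry12 and P2ry13 lay within their SDs of each other at E14.5, P3, P10 and P56, with 82.1 ± 21.8 and 78.7 ± 13.6 CPM per kb at E14.5, but not at P21, with 114 ± 10 and 87.4 ± 0.776. Sall1 was last at every age by either length.

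**Figure D1:**
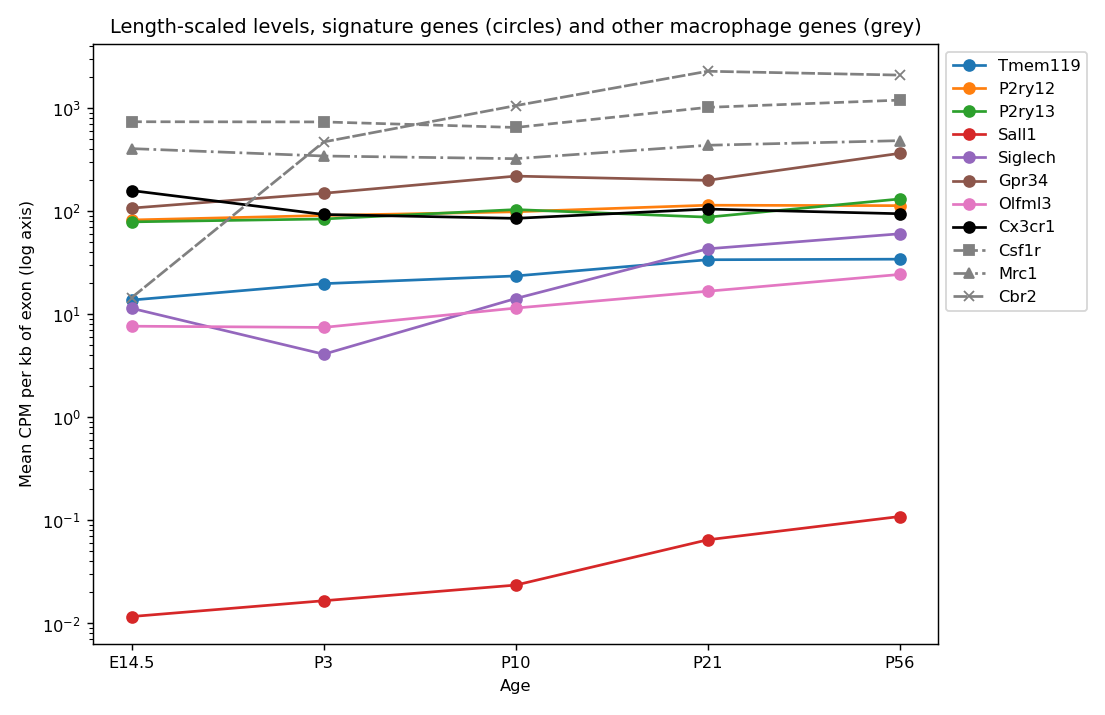
Mean level per kb of exon (CPM per kb, log axis) at each age for the 8 signature genes (circles) and 3 other macrophage genes (grey). Gpr34, Cx3cr1, P2ry12 and P2ry13 lie between 78.7 and 363 CPM per kb, below Csf1r, and Sall1 lies at 0.109 or lower.

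The 8 genes together took 1434 to 1963 CPM of each E14.5 library's total count, 1357 to 1473 at P3, 1477 to 1694 at P10, 1557 to 1615 at P21 and 1673 to 2096 at P56. Over all 15 libraries the sum stayed between 1357 and 2096 while its makeup moved, with less Cx3cr1 and more Gpr34 after E14.5. Highest over lowest age mean, the spans were 14.7-fold for Siglech, 3.40-fold for Gpr34, 3.26-fold for Olfml3, 2.49-fold for Tmem119, 1.86-fold for Cx3cr1, 1.67-fold for P2ry13 and 1.39-fold for P2ry12.

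**Figure D2:**
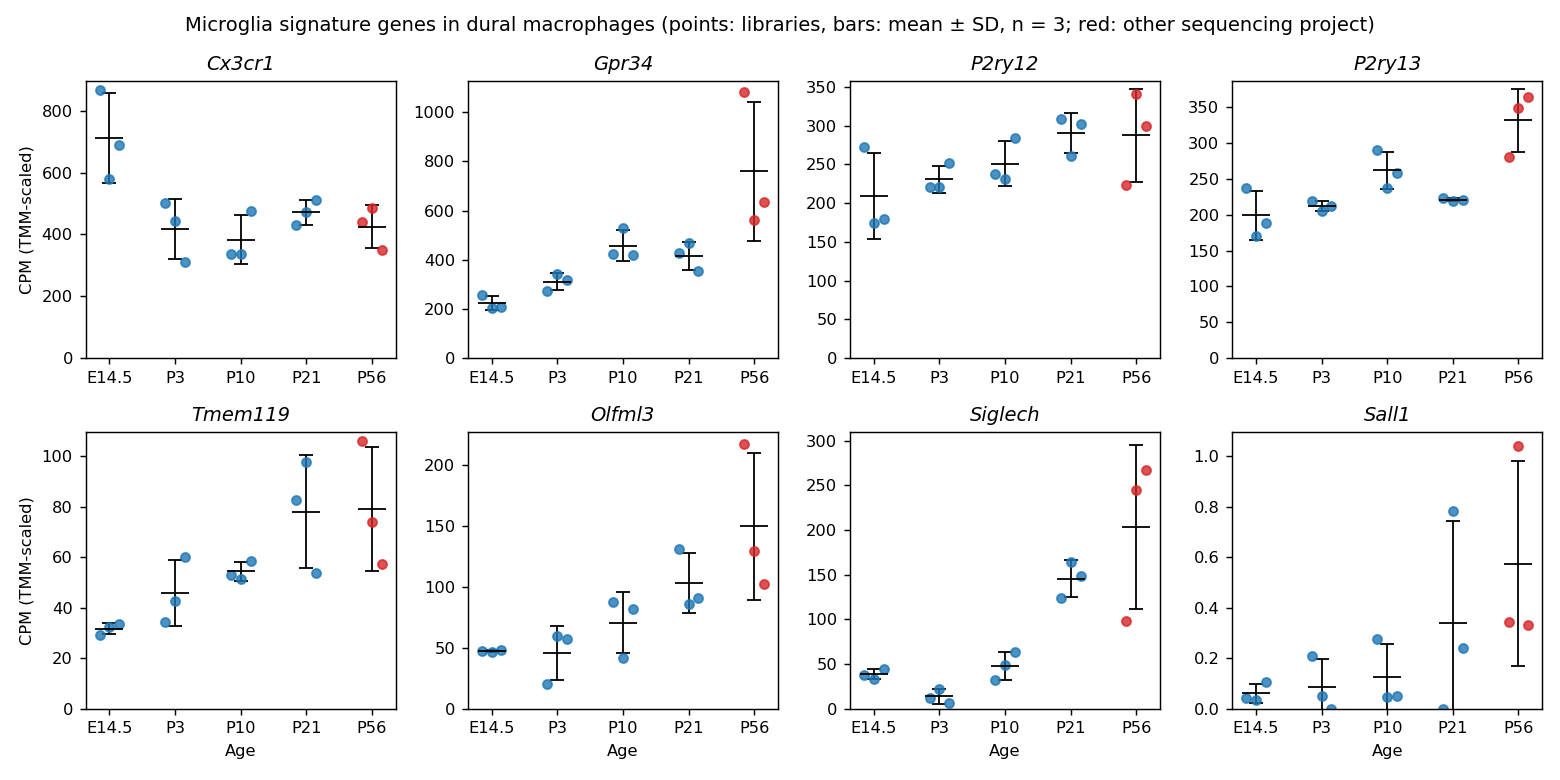
TMM-scaled CPM of each signature gene in the 15 libraries by age (points), with mean ± SD of 3 libraries (bars); red points are the P56 libraries of the other sequencing project. The P21 libraries of Siglech lie at 124 to 164 CPM, above the P3 libraries at 6.78 to 22.5, and Cx3cr1 is highest in the E14.5 libraries at 579 to 868.

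Siglech, the sialic acid-binding lectin gene, had the widest swing of the members. Its 3 libraries read 37.6, 33.4 and 44.7 CPM at E14.5, 12.3, 22.5 and 6.78 at P3, 31.7, 48.8 and 63.5 at P10, 124, 164 and 149 at P21, and 98.5, 245 and 268 at P56. Every P3 library lay below every library of the other ages, and every P21 library lay above all libraries of E14.5, P3 and P10. The P56 libraries overlapped those of P21, with P56 replicate 4 the lowest of both ages.

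Siglech rose to 146 ± 20.4 CPM at P21, against 13.8 ± 7.97 at P3 (log2 change 3.40 ± 0.45, adjusted p = 0.000575), a 10.6-fold difference. That call held in all 16 alternative analyses, with log2 changes of 3.07 to 3.93. Siglech also rose at P21 relative to E14.5, where it had 38.6 ± 5.70 CPM (1.92 ± 0.42, adjusted p = 0.00797; highest adjusted p over the alternatives 0.0454). The single steps did not pass although their libraries did not overlap. The difference was -1.48 ± 0.42 for P3 over E14.5 (adjusted p = 0.0996), 1.80 ± 0.42 for P10 over P3 (0.107) and 1.60 ± 0.42 for P21 over P10 (0.0864). DESeq2 called all 3 steps, with adjusted p of 0.00789, 0.00125 and 0.00316, and the first step also passed without P3 replicate 2 (-2.02, adjusted p = 0.0473).

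Plasmacytoid dendritic cells also express Siglech, so their markers were read beside it. Of 12 markers, Klk1 was at 0 in all 15 libraries, and Ccr9, Spib, Ly6d, Cd300c, Pacsin1 and Ptprcap were at 0 in 9 to 13 of them and reached no more than 3.82 CPM in any. At P21, where Siglech was 124 to 164 CPM, 6 of the 12 markers were at 0 in all 3 libraries. The list's summed level as CPM of the total, 578 to 694 at E14.5, 727 to 854 at P3, 729 to 862 at P10, 747 to 815 at P21 and 846 to 1094 at P56, came mostly from Tcf4, Irf8 and Bst2. Macrophages express these 3 genes too, and Bst2 alone of the list was called at P21 over E14.5 (1 of 6 tested, where 12.2% of all tested genes were called). Mast cell markers stood high at P3, where Siglech was lowest, with a 9-gene sum of 638 to 1765 CPM of the total, beside 2.11 to 126 at E14.5, 176 to 436 at P10, 4.05 to 11.4 at P21 and 10.2 to 292 at P56. At P3 none of the 9 was at 0 in all libraries, and neutrophil markers summed to 94.0 and 216 in P3 replicates 1 and 2, against 22.7 or lower in all other libraries. Of 4 tested neutrophil markers, 0 were called by edgeR in any comparison of 2 ages, where 0.272% to 12.2% of all tested genes were. Up to 3 of the 4 had an unadjusted p under 0.05, beside 10% to 25.9% of all tested genes. The edgeR F-test over the 4 younger ages called 2 of the 4 neutrophil markers, Ngp (adjusted p = 0.0317) and S100a8 (adjusted p = 0.0453), and 4 of 8 mast cell markers. That test called 12.3% of all its genes. At P21 over P3, where Siglech was called, 3 of 9 mast cell markers fell by edgeR, the protease genes Tpsb2 (log2 change -6.89 ± 1.59 SE, adjusted p = 0.0287), Cma1 (-6.35 ± 1.58, adjusted p = 0.0399) and Cpa3 (-7.80 ± 1.96, adjusted p = 0.0427). In that comparison 3.64% of all tested genes were called. Cpa3 had 1.51 ± 1.22 CPM at P21, against 339 ± 177 at P3 (SD, n = 3 each). The part of these cells in the Siglech values was not tested.

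Relatives of Siglech were read beside it, and 3 of the 5 rose at P21 over E14.5, where 12.2% of all tested genes were called. Siglece, an inhibitory Siglec gene, rose to 107 ± 22.9 CPM at P21, against 53.0 ± 9.10 at P10 (1.02 ± 0.21, adjusted p = 0.0365) and against 48.4 ± 10.1 at E14.5 (1.15 ± 0.21, adjusted p = 0.0028). Siglec1, the sialoadhesin gene of tissue macrophages, rose to 180 ± 80.8 CPM at P21, against 46.1 ± 21.1 at E14.5 (1.96 ± 0.38, adjusted p = 0.00327). Cd33 rose to 254 ± 42.2 CPM, against 128 ± 9.70 at E14.5 (0.98 ± 0.19, adjusted p = 0.00314). At P3, Siglec1 had 105 ± 30.2 CPM and Siglece 57.9 ± 12.2 and neither was below its E14.5 mean, unlike the Siglech mean. Siglecg and Siglecf stayed at age means of 7.36 CPM or lower.

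**Figure D3:**
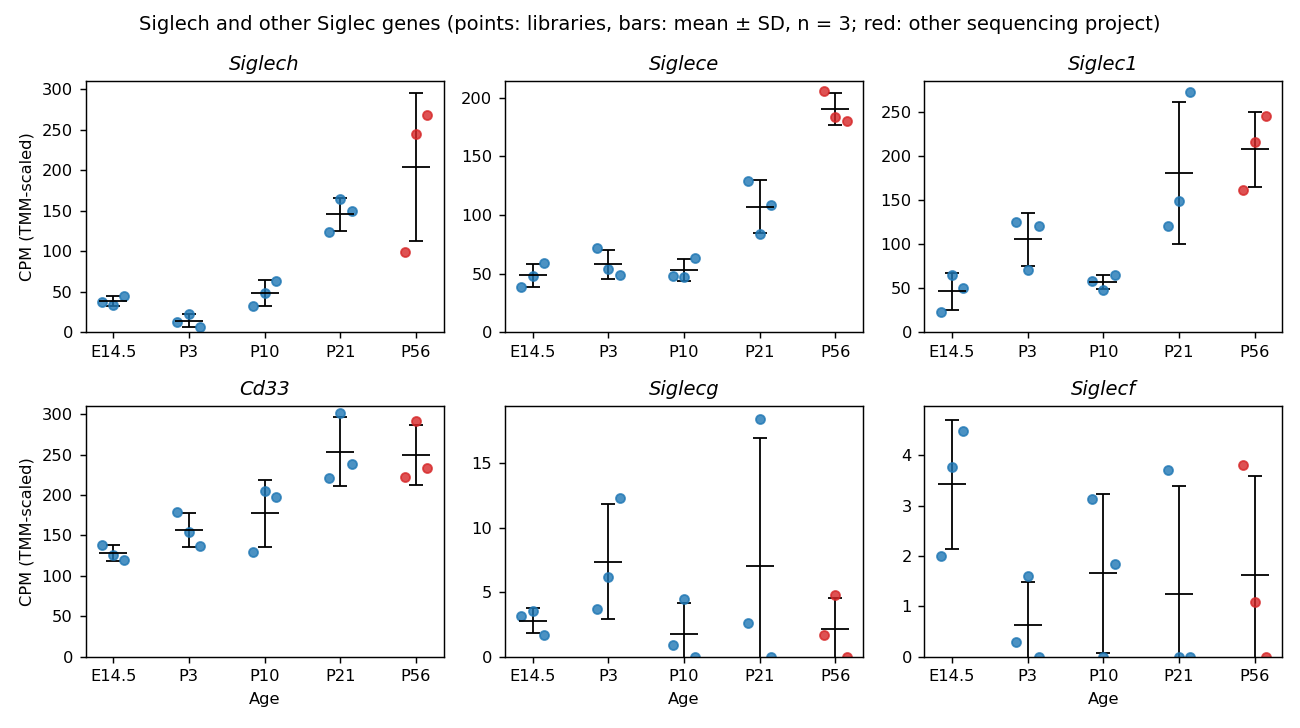
TMM-scaled CPM of Siglech and 5 other Siglec genes in the 15 libraries by age (points), with mean ± SD of 3 libraries (bars); red points are the P56 libraries of the other sequencing project. Siglece lies at 83.6 to 129 CPM in the P21 libraries and at 47.4 to 63.5 in the P10 libraries, and Siglecg and Siglecf are low throughout.

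Tmem119, the transmembrane protein gene most used to stain microglia, was low but measurable at all ages. Its libraries read 29.3, 32.3 and 33.6 CPM at E14.5, 34.5, 42.8 and 60.1 at P3, 52.9, 51.6 and 58.8 at P10, 82.8, 97.9 and 53.7 at P21, and 106, 74.1 and 57.4 at P56. The E14.5 libraries were the lowest and did not overlap those of any later age. The P21 and P56 libraries were spread widely, and P21 replicate 3 lay within the range of P10. As CPM of the total, E14.5 replicate 3 (38.4) lay above P3 replicate 1 (37.8), so these ages overlapped. On that scale P21 replicate 3 (50.7) lay just below the lowest P10 library (51.6). Tmem119 rose to 78.2 ± 22.5 CPM at P21, against 31.8 ± 2.20 at E14.5 (1.30 ± 0.27, adjusted p = 0.00607), and the call held in all 16 alternatives (0.98 to 1.51, highest adjusted p 0.0313). At P10 the difference from E14.5, 54.4 ± 3.81 against 31.8 ± 2.20 CPM, was 0.78 ± 0.27 and did not pass (adjusted p = 0.0937). P21 over P3 was 0.77 ± 0.27 (adjusted p = 0.158), with overlapping libraries.

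Gpr34, the lysophosphatidylserine receptor gene, rose early and stayed up. Its libraries read 258, 204 and 210 CPM at E14.5, 275, 343 and 317 at P3, 423, 530 and 418 at P10, 427, 467 and 353 at P21, and 1082, 562 and 634 at P56. No library of a later age reached down to the E14.5 range, the P10 and P21 libraries overlapped, and the P56 libraries lay above all others. As CPM of the total, P56 replicates 5 (472) and 6 (511) lay below P10 replicate 2 (529). On that scale the P10 libraries (432 or higher) lay above those of P21 (426.5 or lower). Gpr34 rose to 457 ± 63.1 CPM at P10, against 224 ± 29.5 at E14.5 (1.03 ± 0.22, adjusted p = 0.00887), a call kept in all 16 alternatives with a highest adjusted p of 0.0470. It was 416 ± 57.7 CPM at P21, which was also a rise over E14.5 (0.90 ± 0.21, adjusted p = 0.0139). That call was lost with no scaling factor (0.58, adjusted p = 0.0842) and without E14.5 replicate 2 (0.0652), E14.5 replicate 3 (0.0585) or P21 replicate 2 (0.0506). The steps in between did not pass, with 0.48 ± 0.21 for P3 over E14.5 (adjusted p = 0.361) and 0.55 ± 0.21 for P10 over P3 (0.394).

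At P56, Gpr34 had 759 ± 282 CPM, against 416 ± 57.7 at P21, and this difference did not pass (0.87 ± 0.21, adjusted p = 0.131). P56 replicate 4, with 1082 CPM, carried much of it, since the difference was 0.52 without that library (adjusted p = 0.265). The same library differed more from its fellows over all genes than they did from each other, with a chi-square per degree of freedom of 164 and 152, against 56.9. It also had the highest Tmem119 and Olfml3 and the lowest Siglech, P2ry12 and P2ry13 of the 3 P56 libraries. Its Mrc1, a mannose receptor gene of border macrophages, stood at 1655 CPM, against 4006 and 3562 in P56 replicates 5 and 6, and Csf1r at 3380, against 8689 and 8593. Not every macrophage gene was lowest there, since Lyve1 read 589 CPM, against 384 and 1222. Ccr2, a receptor gene of monocytes, read 537 CPM there, against 62.3 and 130 in the same 2 libraries. The sum of the 10 monocyte markers was 1297 CPM of the total there, against 1554 and 1707. Most of that sum was Nr4a1, which macrophages also express, with 829.7 CPM of the total there, against 1492 and 1581. On the same scale Ccr2 had 459.5, against 52.3 and 104.7, so the sum did not follow Ccr2. The part of monocytes in these values was not tested. Gpr34 lies inside the span of Cask on the opposite strand, and the strand setting of the counting is not given in the sources used here. Cask itself had age means of 16.5 to 39.7 CPM, and the genes share no exon base in GENCODE M21.

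The ADP receptor genes P2ry12 and P2ry13 had the narrowest spans of age means among the 7 tested members, 1.39-fold and 1.67-fold. Neither was called by the main edgeR fits in any comparison. P2ry12 libraries read 273, 174 and 180 CPM at E14.5, 221, 221 and 251 at P3, 237, 232 and 284 at P10, 309, 261 and 301 at P21, and 223, 341 and 299 at P56. E14.5 replicate 1 stood with the later ages and the other 2 libraries of E14.5 below all of them. As CPM of the total, E14.5 replicate 1 (306) lay above all later libraries, and P56 replicate 4 (190.7) lay below all of E14.5. P2ry12 had 290.4 ± 25.6 CPM at P21, against 209 ± 55.4 at E14.5 (0.47 ± 0.19), and did not pass (adjusted p = 0.122). Without E14.5 replicate 1 the difference was 0.71 and passed (adjusted p = 0.0254), and over all alternatives it ran from 0.17 to 0.71.

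P2ry13 libraries read 237, 171 and 189 CPM at E14.5, 219, 205 and 212 at P3, 290, 238 and 258 at P10, 223, 219 and 220 at P21, and 281, 349 and 364 at P56. The P10 libraries lay above those of P3, P21 and E14.5, and the P56 libraries lay above those of P21. With TMM factors, P10 replicate 2 (237.5) and E14.5 replicate 1 (237.1) were nearly equal. As CPM of the total, P10 replicate 2 (237.2) lay below E14.5 replicate 1 (266) and P3 replicate 1 (240.2). On that scale P10 therefore overlapped both ages, while P10 and P56 still lay above P21. P2ry13 averaged 262 ± 26.4 CPM at P10 and 199 ± 34.4 at E14.5 (0.40 ± 0.14), which did not pass (adjusted p = 0.0972). It passed with the upper quartile scaling (0.0430), with DESeq2 (0.0481) and without E14.5 replicate 1 (0.0400). P2ry13 had its highest mean among the 4 younger ages at P10. P10 over P3 was 0.30 ± 0.14 (adjusted p = 0.488). At P56, 331 ± 44.3 CPM against 220.9 ± 1.96 at P21 gave 0.59 ± 0.14, which did not pass either (adjusted p = 0.117), but DESeq2 called it (0.00615).

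The ratio of P2ry13 to P2ry12 counts is taken within a library and so does not depend on its scaling. It was 0.869, 0.981 and 1.05 at E14.5, 0.992, 0.928 and 0.846 at P3, 1.22, 1.03 and 0.906 at P10, 0.723, 0.840 and 0.731 at P21, and 1.26, 1.02 and 1.22 at P56. All P21 ratios lay below all others, and the P56 ratios overlapped only those of P10 and E14.5. Both genes lie inside the span of Med12l on the opposite strand, with 9 exon bases shared by P2ry12 and none by P2ry13, and Med12l had age means of 2.36 to 5.88 CPM. The neighbouring receptor gene P2ry14 had 1.91 to 20.8 CPM. The platelet marker sum, read because platelets carry P2ry12, was 8.65 to 35.0 CPM of the total over the 15 libraries. By edgeR, 0 of 7 tested markers were called in any comparison of 2 ages, where 0.272% to 12.2% of all tested genes were. At most 1 of the 7 had an unadjusted p under 0.05, beside 10% to 25.9% of all tested genes. Between 1 and 4 of the 12 platelet markers were at 0 in all libraries of an age.

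Cx3cr1, the fractalkine receptor gene, went the other way. Its libraries read 868, 579 and 690 CPM at E14.5, 501, 442 and 310 at P3, 337, 337 and 476 at P10, 431, 472 and 512 at P21, and 441, 485 and 349 at P56. Every E14.5 library lay above every later one, and the libraries of P3, P10, P21 and P56 overlapped each other. Cx3cr1 fell to 383 ± 79.9 CPM at P10, against 713 ± 146 at E14.5 (-0.89 ± 0.21, adjusted p = 0.0151). Leaving out P10 replicate 1 (adjusted p = 0.0690), P10 replicate 2 (0.0789) or E14.5 replicate 1 (0.0690) ended the call. P3 over E14.5 was -0.77 ± 0.21 and did not pass (adjusted p = 0.0794), and P21 over E14.5 was -0.60 ± 0.20 (adjusted p = 0.0767). The P21 difference passed with no scaling factor (-0.90, adjusted p = 0.0095) and with DESeq2 (-0.59, adjusted p = 0.0297).

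These counts were made in mice with 1 intact Cx3cr1 allele at all ages, and the level in mice with both alleles was not analysed here. Cx3cr1 shares 78 of its 4505 exon bases with the antisense gene Gm33858. Around the receptors, the list of signalling partners held G protein subunits, the sheddases Adam10 and Adam17 that release fractalkine, other nucleotide receptors and the nucleotide-degrading Entpd1 and Nt5e. Of 14 tested partners at P21 over E14.5, 2 rose and 1 fell, with a median log2 change of 0.27, against -0.009 over all tested genes. Of all tested genes, 12.2% were called in that comparison. P2rx4, an ATP-gated ion channel gene, rose to 440 ± 97.8 CPM, against 186 ± 16.7 (1.24 ± 0.14, adjusted p = 6.84e-05), and P2ry6, a UDP receptor gene, to 446 ± 18.6, against 238 ± 44.6 (0.91 ± 0.16, adjusted p = 0.002). Adam17 fell to 147 ± 22.5 CPM, against 249 ± 20.9 (-0.76 ± 0.19, adjusted p = 0.0158). Cx3cl1, the ligand gene, stayed at age means of 1.09 to 8.67 CPM. At P10 over E14.5, P2rx4 rose (0.93 ± 0.14, adjusted p = 0.00117), and Gnai3, the gene of an inhibitory G protein subunit, fell (-0.77 ± 0.16, adjusted p = 0.0099).

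Olfml3, the secreted olfactomedin-domain protein gene, had its highest means at P21 and P56 and varied widely between libraries after E14.5. Its libraries read 47.0, 46.3 and 48.1 CPM at E14.5, 20.6, 59.4 and 57.7 at P3, 87.8, 42.1 and 82.1 at P10, 131, 86.2 and 91.3 at P21, and 218, 130 and 102 at P56. The P21 and P56 libraries lay above all of E14.5 and P3, while 1 library each of P3 and P10 lay below E14.5. Olfml3 had 103 ± 24.6 CPM at P21, against 47.1 ± 0.898 at E14.5 (1.13 ± 0.39), and did not pass (adjusted p = 0.0775). It was called by 2 alternatives, DESeq2 (adjusted p = 0.0228) and a fit of only these 2 ages (0.0183). P21 over P3 was 1.17 ± 0.39 (adjusted p = 0.140), called by DESeq2 alone (0.0391).

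Fibroblasts of the meninges can express Olfml3, so 14 fibroblast and stromal markers were summed per library as CPM of the total. The sums were 86.4, 76.6 and 763 at E14.5, 575, 1915 and 2627 at P3, 2935, 863 and 2940 at P10, 2021, 1784 and 1204 at P21, and 194, 213 and 259.6 at P56. The lowest Olfml3 libraries of P3 and P10, replicate 1 and replicate 2, also had the lowest fibroblast sums of their ages. The P56 libraries had the highest mean Olfml3 and sums of 259.6 or lower, and E14.5 replicate 3 had a sum of 763 with Olfml3 at 48.1 CPM. Of the 14 markers, 4 rose at P21 over E14.5 (Mgp, Dcn, Ptgds and Lum, median log2 change of the 14 2.21) and none fell. In that comparison 12.2% of all tested genes were called. Only at P3 was 1 marker at 0 in all libraries. Their part in the Olfml3 values was not tested.

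**Figure D4:**
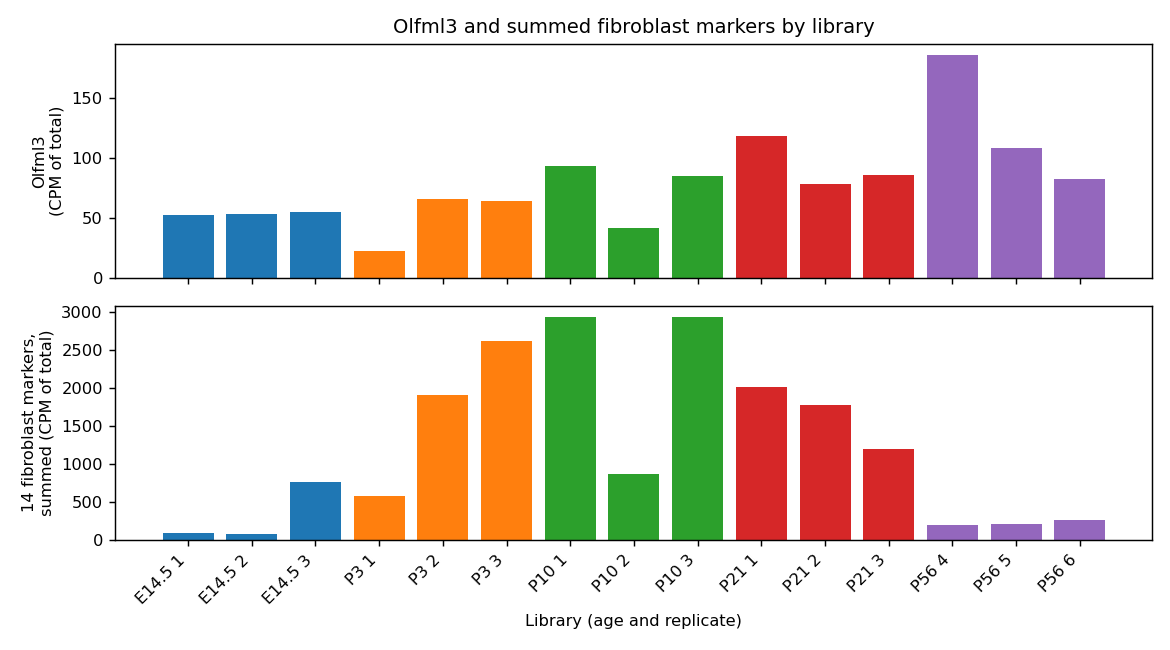
Olfml3 (upper bars) and the sum of 14 fibroblast and meningeal stromal markers (lower bars) in each of the 15 libraries, both as CPM of the total count, coloured by age. The lower bars reach 2940 at P10 and stay at 259.6 or lower at P56, where the upper bars include the highest library.

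Sall1, the transcription factor gene, was at the edge of detection. Its libraries had 1, 1 and 3 counts at E14.5, 7, 1 and 0 at P3, 9, 1 and 1 at P10, 0, 15 and 5 at P21, and 6, 19 and 6 at P56. The summed counts were 5, 8, 11, 20 and 31 in order of age, or 0.0722 CPM of the total at E14.5 (exact 95% binomial interval 0.0234 to 0.168), 0.116 at P3 (0.0499 to 0.228), 0.153 at P10 (0.0763 to 0.274), 0.304 at P21 (0.186 to 0.470) and 0.482 at P56 (0.327 to 0.684). The P21 and P56 intervals lie above that of E14.5, but they cover counting error only, and 15 of 20 counts at P21 came from replicate 2. As CPM of the total, P56 replicate 6 (0.269) lay below P10 replicate 1 (0.294), so the P56 libraries overlapped those of P10, and they lay above those of P10 only with TMM factors. The P21 libraries overlapped those of every age on either scale. No test was made for Sall1.

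TGF-beta signalling maintains the microglial program together with Sall1. Of 11 tested genes of this axis, Tgfbr2, the type II receptor gene, was the 1 that rose at P21 over E14.5, to 438 ± 132 CPM, against 218 ± 49.2 (1.01 ± 0.26, adjusted p = 0.0198). None fell, and the median change was 0.06, where 12.2% of all tested genes were called. None of the 11 was called by edgeR in the other 6 comparisons between ages, where 0.272% to 8.96% of all tested genes were called. In these, 0 to 4 of the 11 had an unadjusted p under 0.05, beside 10% to 23% of all tested genes. The 4 were at P21 over P10, where 14.6% of all tested genes had such a p. Markers of neurons and glia, read because brain tissue carries microglia, summed to 17.1 to 75.7 CPM of the total over the 15 libraries, and between 1 and 4 of the 16 were at 0 in all libraries of an age. Mbp was the 1 of 11 tested that rose at P21 over E14.5 (1.45 ± 0.44, adjusted p = 0.0486), where 12.2% of all tested genes were called. The part of these cells in the signature genes' values was not tested.

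The members called are given here beside the share of all tested genes called. At P3 over E14.5, 0 of 7 tested members were called, where 2.06% of all tested genes were. The counts were 0 of 7 at P10 over P3 (0.402% of all genes), 0 of 7 at P21 over P10 (1.14%) and 0 of 7 at P56 over P21 (0.272%). In those 4 comparisons 3, 3, 1 and 2 members had an unadjusted p under 0.05, where 12.8%, 10%, 14.6% and 11.7% of all tested genes did. DESeq2 called 2, 1, 1 and 2 members there, and it also called more of all genes than edgeR in each. At P10 over E14.5, Gpr34 rose and Cx3cr1 fell, 2 of 7, where 8.96% of all genes were called. At P21 over P3, Siglech alone of the 7 rose (3.64% of all genes). At P21 over E14.5, Tmem119, Siglech and Gpr34 rose and none fell, 3 of 7, where 12.2% of all genes were called.

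An F-test of any difference among the 4 younger ages, whose 12 libraries belong to the same sequencing project, called 4 of the 7 members, where 12.3% of 14287 genes were called. Siglech (adjusted p = 0.000748) and Gpr34 (0.00265) were called in all 20 alternatives of this test. The other 2 calls turned on single libraries. Tmem119 (0.0230) was lost with no scaling factor (0.0762) and without any 1 of the E14.5 libraries (0.0680 to 0.0793) or P21 replicates 1 (0.0566) or 2 (0.0548). Cx3cr1 (0.0334) was lost with the upper quartile scaling (0.0529) and without E14.5 replicates 1 (0.157) or 3 (0.102), P3 replicate 2 (0.0565) or P10 replicates 1 (0.0768) or 2 (0.0803). Olfml3 (0.127), P2ry13 (0.193) and P2ry12 (0.262) did not pass.

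The median log2 change of the 7 members was 0.90 at P21 over E14.5, where the median of all tested genes was -0.009, and 6 of the 7 changes were above 0. It was 0.42 at P21 over P3, 0.40 at P10 over E14.5, 0.48 at P56 over P21, 0.30 at both P10 over P3 and P21 over P10, and 0.09 at P3 over E14.5. These comparisons share libraries and are not independent of each other.

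**Figure D5:**
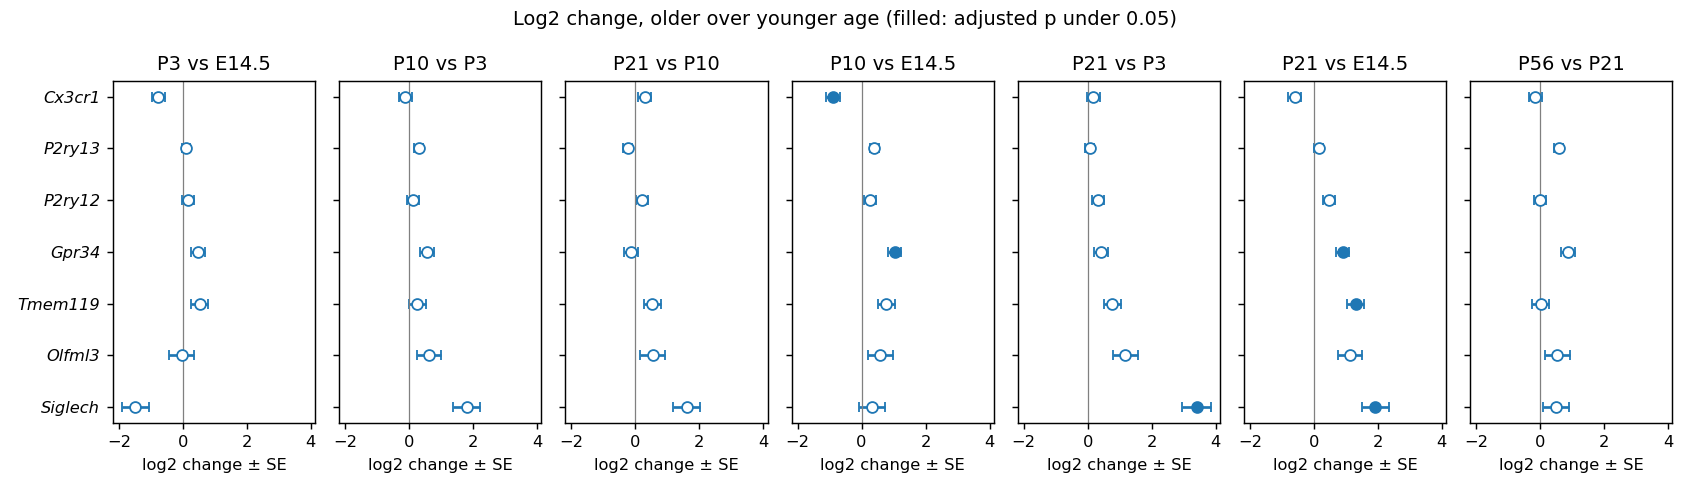
Log2 change (older over younger age) ± SE of the 7 tested signature genes in the 7 comparisons between ages; filled points have an adjusted p under 0.05. The filled points are Gpr34 and Cx3cr1 at P10 vs E14.5, Siglech at P21 vs P3, and Gpr34, Tmem119 and Siglech at P21 vs E14.5.

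The scale bore on the direction of calls over all genes. Without TMM factors, the median of all genes shifted by -0.31 at P21 over E14.5, -0.27 at P21 over P3, -0.17 at P21 over P10 and -0.14 at both P10 over E14.5 and P56 over P21. The share of called genes that were higher in the older age was then 33.3% in place of 64.1% at P21 over E14.5, 33.9% in place of 74.2% at P21 over P3, 47.9% in place of 83.9% at P21 over P10, 44.8% in place of 64.8% at P10 over E14.5, 70.9% in place of 84.7% at P10 over P3 and 15.3% in place of 37.5% at P56 over P21. None of the 22 log2 changes of members given here turned its sign under any alternative. These 22 were picked by an unadjusted p under 0.05, which made a change of sign unlikely from the start. Outside them, the P2ry13 mean at P21 (220.9 CPM) lay above those of E14.5 (198.9) and P3 (212.2). On the scale of the total count it lay below both, with 203, against 226.3 and 234.5. As CPM of the total, the order of the age means was the same for Siglech, Gpr34, Olfml3 and Sall1. For Tmem119 the 2 highest ages swapped (66.4 ± 22.5 at P56 and 71.6 ± 19.6 at P21), and for Cx3cr1 the lowest age became P56 (355 ± 65.6), with P10 at 395 ± 83.6. The order also changed for P2ry12 and P2ry13.

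Other genes enriched in microglia were read beside the members. Of 20 tested, 7 were called up and none was called down at P21 over E14.5 (among those up Ltc4s, Fcrls, Sparc, Cd33 and Il10ra). The median log2 change of the 20 was 0.54, and 14 of the 20 changes were above 0. Slc2a5 was not called, with 25.3, 10.67 and 11.27 CPM at E14.5, against 0.44, 0.313 and 1.445 at P21. Of all tested genes, 12.2% were called in that comparison, 1147 up and 642 down. Sparc, a matrix protein gene that fibroblasts express strongly too, read 18.1, 14.2 and 98.3 CPM at E14.5, 135, 288 and 540.3 at P3, 936, 312 and 767 at P10, 1095, 845 and 553 at P21, and 157, 120.5 and 123 at P56. At E14.5, P3 and P21 the library with the highest Sparc also had the highest fibroblast marker sum of its age, and at P10 the library with the lowest Sparc had the lowest sum. At P56 it was the other way, since replicate 4 had the highest Sparc and the lowest sum (194.1 CPM of the total, against 213.1 and 259.6). The part of fibroblasts in its values was not tested. Ltc4s, the leukotriene C4 synthase gene, rose to 152 ± 20.3 CPM at P21, against 38.1 ± 1.88 at E14.5 (2.0 ± 0.15, adjusted p = 7.77e-07), and had already risen at P3 over E14.5 (0.95 ± 0.14, adjusted p = 0.00349). Fcrls, an Fc receptor-like gene enriched in microglia, rose to 3573 ± 111 CPM at P21, against 2173 ± 142 at P3 (0.72 ± 0.10, adjusted p = 0.000844). Trem2, a lipid-sensing receptor gene, rose at P10 over E14.5, with 427 ± 39.4 CPM against 213 ± 6.94 (1.0 ± 0.16, adjusted p = 0.0018). In the other comparisons 2 of 20 rose at P3 over E14.5 (2.06% of all tested genes were called), 2 at P10 over P3 (0.402%), 5 at P10 over E14.5 (8.96%) and 5 at P21 over P3 (3.64%). None rose at P21 over P10 (1.14%) or P56 over P21 (0.272%), with 7 and 8 of the 20 at an unadjusted p under 0.05, beside 14.6% and 11.7% of all tested genes. None of the 20 was called down in any of these comparisons.

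Markers of border-associated macrophages, the class to which dural macrophages belong, were read beside them. Of 18 tested, 12 rose and 1 fell at P21 over E14.5, where 12.2% of all tested genes were called. The median log2 change of the 18 was 1.46. Cbr2, a carbonyl reductase gene, rose to 3018 ± 238 CPM, against 19.3 ± 0.796 (7.29 ± 0.15, adjusted p = 1.04e-12), and Cd163, the hemoglobin scavenger receptor gene, rose to 854 ± 114, against 39.6 ± 14.8 (4.43 ± 0.37, adjusted p = 3.29e-06). Markers of monocytes, blood cells that can enter the dura, summed to 1594 to 2207 CPM of the total in P21 libraries and to 260.1 to 476 in E14.5 libraries. Of 9 tested, Nr4a1 (2.75 ± 0.29, adjusted p = 3.22e-05) and Ccr2 (2.33 ± 0.70, adjusted p = 0.0425) rose, where 12.2% of all tested genes were called. Nr4a1, an immediate early gene that macrophages also express, held most of the sum. The part of monocytes in the members' changes was not tested.

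For each tested member, the genes with the nearest profile were taken from 6564 candidates by the root mean square difference of centred log2 levels over the 12 libraries of E14.5 to P21. The nearest to Gpr34 was Sptssa, a subunit gene of serine palmitoyltransferase, at a distance of 0.0636, followed by Sat1 (0.113) and Tyrobp (0.113), against a median of 0.577 over the candidates. The nearest to Tmem119 were Ly96 (0.173), Rnf11 (0.174) and Tifa (0.195). The nearest to Siglech were Atf3 (0.520), Btg2 (0.530) and Lair1 (0.593), against a median of 1.36. Atf3, a stress-induced transcription factor gene, had age means of 453, 280, 999.6, 1963 and 2615 CPM from E14.5 to P56, and Lair1, an inhibitory collagen receptor gene, had 30.9, 23.2, 53.7, 134 and 322, each lowest at P3 like Siglech.

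Abhd12 (0.102), H13 (0.132) and Pitpna (0.135) were the nearest to P2ry12, and Sdhb (0.102), Erp29 (0.108) and Idh3g (0.114) to P2ry13. Abhd12 encodes a hydrolase of lysophosphatidylserine, and Sdhb and Idh3g encode subunits of mitochondrial enzymes. Azin1 (0.155), Nek6 (0.196) and Lrrc41 (0.213) were the nearest to Cx3cr1 and, like it, had their highest mean at E14.5. Tnfaip2 (0.351) and Tank (0.361) were nearest to Olfml3. The medians over the candidates were 0.639 for Tmem119, 0.457 for P2ry12, 0.427 for P2ry13, 0.556 for Cx3cr1 and 0.770 for Olfml3. Members with a flat profile have small distances to many genes, so these distances describe likeness only within each member. The genes were picked for likeness over the same libraries, so sharing a member's highest or lowest age is largely given by that choice.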

How the data were processed

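The values were the authors' deposited raw read counts per gene symbol in 15 libraries, with no normalization. Per the labels' protocols, libraries came from sorted cells kept in RNAprotect, by PicoPure extraction, SMARTer Ultra Low Input v4 cDNA and Nextera XT. Tools named in the submitters' processing notes are STAR 2.7.8a, featureCounts 2.0.2 and bcl2fastq 2.18. Genome build, annotation, strand setting and treatment of multi-mapped reads are not given in the sources used here. Gene lengths and overlaps came from GENCODE M21, which matched 50067 of 53546 symbols (93.5%), and promoter windows from RefSeq.

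From the counts, edgeR 4.0.16 in R 4.3.3 fitted age over all 15 libraries (TMM, filterByExpr by age, 14683 genes, robust quasi-likelihood F-tests, Benjamini-Hochberg over all genes tested). An F-test over the 12 libraries of E14.5 to P21 kept 14287 genes. The labels do not tie libraries to mice, so p-values measure only the spread between these samples, which may be technical. No 2 libraries of an age agreed within sampling noise, with a chi-square per degree of freedom of 25.8 to 164, so each was counted as 1 sample; this does not tell whether libraries share a mouse. The scripts were tested on simulated data. Genes named were all members, their 3 nearest profiles (log2 of CPM plus 0.5, mean of at least 20 CPM), up to 3 called genes per list and comparison with the smallest p, identity genes (Csf1r, Mrc1, Ptprc and Adgre1) and genes beside members; a few genes that the rule names are not reported here. The members and gene lists were chosen with earlier results of these data known. Log2 changes of members are given where the unadjusted p was under 0.05. Alternatives were other scalings (RLE, upper quartile, none), no filter, a filter of 5 CPM in 3 libraries, limma voom (limma 3.58.1), DESeq2 1.42.0, a replicate block, fits of only the ages compared, P56 left out (chosen after seeing the data) and each library left out. Intervals and floors cover counting error only, since the protocols name no molecular identifiers.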

Additional observations from a re-analysis of the deposited data

How the results depend on the processing

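The 22 log2 changes of members with an unadjusted p under 0.05 had 348 alternative values. Of these, 318 stayed on their side of the threshold, 7 lost a call and 23 gained one. None turned its sign, which the choice by p made unlikely from the start. DESeq2 called more genes in every comparison, with 821 at P3 over E14.5, 335 at P10 over P3, 748 at P21 over P10, 2200 at P10 over E14.5, 1149 at P21 over P3, 2756 at P21 over E14.5, 524 at P56 over P21 and 3190 over the 4 ages. The members it called numbered 2, 1, 1, 4, 2, 5 and 2 in the 7 comparisons in that order. Fits of only the ages compared called 681 genes at P3 over E14.5, 73 at P21 over P10, 2138 at P10 over E14.5, 321 at P21 over P3 and 3 at P56 over P21. Without a filter, 116 genes were called at P10 over P3 and 101 at P56 over P21, with 1 member (Cx3cr1) at P3 over E14.5 and 1 (Gpr34) at P56 over P21. The filter of 5 CPM gave 91 and limma voom 94 at P10 over P3. Limma voom gave 261 genes and 1 member (Siglech) at P21 over P10, and no scaling factor gave 72 genes at P56 over P21. With P56 left out, 109 genes were called at P10 over P3 and 326 at P21 over P10, with 1 member (Siglech).

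With 1 library left out, the genes called ranged from 127 to 198 at P3 over E14.5, 21 to 41 at P10 over P3, 30 to 171 at P21 over P10, 686 to 972 at P10 over E14.5, 241 to 648 at P21 over P3, 1108 to 1933 at P21 over E14.5, 37 to 100 at P56 over P21 and 1009 to 1851 over the 4 ages. The members called ranged from 0 to 1 at P3 over E14.5, 1 to 2 at P10 over E14.5, 2 to 4 at P21 over E14.5 and 2 to 4 over the 4 ages. The lowest counts were without E14.5 replicate 2 at P3 over E14.5 (127), at P21 over E14.5 (1108) and over the 4 ages (1009), without P3 replicate 3 at P10 over P3 (21) and P21 over P3 (241), without P10 replicate 1 at P21 over P10 (30), without P10 replicate 2 at P10 over E14.5 (686), and the highest at P56 over P21 was without P21 replicate 3 (100). The causes of these differences were not tested.

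Libraries of E14.5 to P21 share replicate numbers 1 to 3. Over 18 pairs, same-numbered libraries had correlations of deviations from -0.0472 to 0.0708, none over 0.1, and the main fits did not pair them. Such correlations cannot tell whether same-numbered libraries shared a preparation. With the replicate block, 258 genes were called at P21 over P10, P2ry13 gained a call at P10 over E14.5 (adjusted p = 0.0444) and Cx3cr1 lost its call over the 4 ages (0.0645). Sall1 had 0 to 19 counts per library at total counts of 17550170 to 30614583, and the cause of its low counts was not tested.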
